A study of Mus musculus with 6 samples.

Results

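Glucose breakdown to lactate and the transcriptional response to low oxygen were followed here through 39 genes of the deposited expression table, out of 53700 listed genes. A gene entered when its name in the table equalled one of the 39 symbols, and where a symbol stood for several gene identifiers the one with the highest mean level was taken, which touched Aldoa alone. RNA-seq was performed on SL4, a luciferase-expressing mouse colorectal cancer cell line, in 2 groups of 3 libraries. The pLV-SEMA6A cells stably overexpressed semaphorin 6A, a membrane-bound guidance protein, from a lentivirus, and the control cells, called pLV-Control, did not overexpress it. Whether the control cells carried an empty lentivirus is not given in the sources used here, and only 1 stable pLV-SEMA6A line is described, so an effect of SEMA6A and a difference between cell lines cannot be told apart. The sources also do not say whether the 3 libraries of a group came from separate cultures, so p-values measure only the spread between these libraries, which may be technical.

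Glycolysis splits glucose into pyruvate in the cytosol and returns a small yield of ATP. Tumour cells often run it fast and reduce the pyruvate to lactate even when oxygen is present, and colorectal tumours commonly raise glucose transporters and lactate export. Under low oxygen the α subunit of hypoxia-inducible factor (HIF) escapes prolyl hydroxylation by the EGLN enzymes and degradation by the VHL ubiquitin ligase, pairs with its partner ARNT and raises transcription of most glycolytic genes along with a set of hypoxia effectors. Much of this control is exerted on the HIF α protein and is not visible in its transcript level.

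Expression values were read as TPM, the share of a library's transcripts corrected for transcript length. The unit was taken from their sums per library. On that reading, levels of different genes can be set side by side within a library. TPM are shares of a library, so a rise of some genes lowers the shares of others. The transgene checked the labels, with Sema6a listed at 0 in every pLV-Control library and at 98.68, 118.42 and 112.22 TPM once overexpressed. The summed TPM of listed genes was 984475 to 986445 in the control libraries and 977400 to 977972 in the pLV-SEMA6A libraries. Genes listed above 0 numbered 19340 to 19463 in the controls and 18798 to 18887 in pLV-SEMA6A. The part of these group differences in the results was not tested, and the number of reads behind a value is unknown. The 9 colon and epithelial markers examined summed to only 0.53 to 2.78 TPM, with Epcam, Cdx1 and Cdx2 at 0 in every library, so these defining transcripts of colonic epithelium were not detected in the labelled colorectal cells, and Krt8, at 0.1 to 0.39 TPM, was the only marker of the 9 above 0 in every library. Of these 9 markers Lgals4 alone passed the level filter described next, at 2.15 TPM in the control mean and 0.363 TPM in the pLV-SEMA6A mean, and it did so only through its control libraries. Leukocyte markers summed to 0.87 to 2.53 TPM and endothelial markers to 0.17 to 0.54 TPM, with Cd3e, Adgre1, Itgam and Cdh5 at 0 in all libraries. The 5 fibroblast markers summed to 15.45 to 16.08 TPM in the controls and to 12.7 to 13.78 TPM in pLV-SEMA6A cells. Among them Pdgfrb fell from 10.5 to 6.66 TPM (adjusted p = 0.000442) and Pdgfra from 1.76 to 0.78 TPM (adjusted p = 0.0219), while Col1a1 rose from 1.27 to 3.6 TPM (adjusted p = 0.000681). Pdgfra also passed the filter only through its control libraries. The part of any of these markers in the results below was not tested.

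Most abundant enzymes of glycolysis were higher in pLV-SEMA6A cells, together with the main glucose transporter Slc2a1 and the lactate exporter Slc16a3. Hif1a itself differed little, and the isozymes Pfkm and Eno2 were lower. Hk1, Eno1 and Ldhb were lower by small margins, and their calls were lost when most single libraries were left out. Differences were tested with limma on log2(TPM + 1) across the 12510 genes averaging 1 TPM or more over the 6 libraries, of which 36 were members. Fold changes below are log2 fold changes of TPM + 1, pLV-SEMA6A minus pLV-Control, with the standard error (SE) and the p-value adjusted over all genes tested. A gene was called a differentially expressed gene (DEG) when its adjusted p was under 0.05 and its absolute log2 fold change was over 0.5. On this call 7 members were higher in pLV-SEMA6A (Slc2a1, Pfkl, Tpi1, Pkm, Slc16a3, Ankrd37 and Higd1a) and 2 were lower (Eno2 and Car12). The higher members were 19.4% of those tested, against 5.12% of all genes tested, and the lower members were 5.56%, against 10.8%. With adjusted p under 0.05 alone, 27 members passed, against 47.6% of all genes. Of these 18 rose (50%, against 19.5% of all genes), 9 fell (25%, against 28.2%), and the other 9 members did not pass. Passing was more common among the 5931 genes averaging at least 20 TPM, of which 30.2% rose and 30.1% fell. In a bulk culture, fewer cells with a transcript and less of it per cell cannot be told apart. The median log2 fold change was 0.16 over the members and -0.06 over all genes tested. All genes gave 640 DEGs that were higher and 1347 that were lower, so 32.2% of DEGs were higher. Centring each library on its own median shifted every fold change up by 0.09, gave 1002 higher and 961 lower DEGs (51% higher), and called 11 members higher and 2 lower. The groups did not overlap for 28 of the 36 members, 19 higher (against 23.8% of all genes) and 9 lower (against 34.7%). With 3 libraries against 3, an exact permutation test of any single gene cannot go below p = 0.1.

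**Figure D1:**
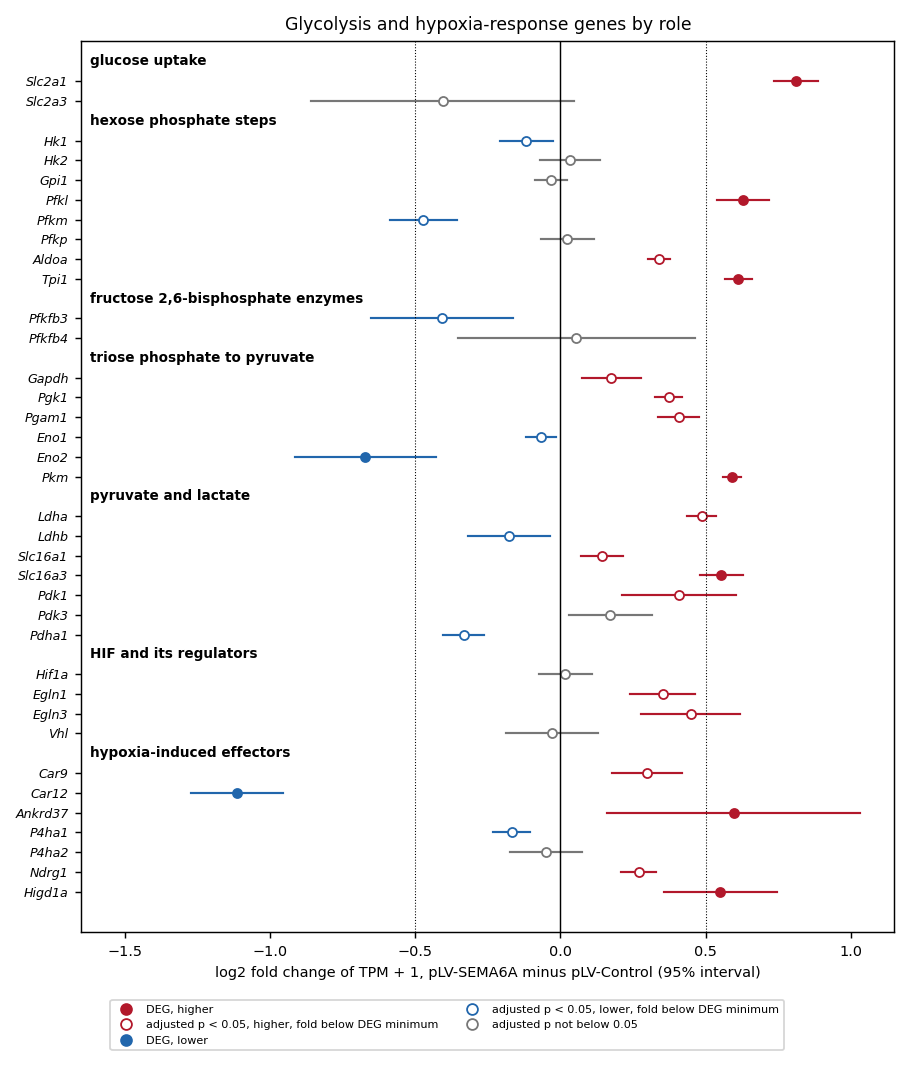
Log2 fold change of TPM + 1 (x axis, pLV-SEMA6A minus pLV-Control) of the 36 members tested, ordered by role, with 95% intervals as bars and dotted lines at the DEG minimum of 0.5 in either direction. Filled red points are the 7 DEGs that were higher and filled blue points the 2 that were lower; Slc2a1 lies farthest right at 0.81 and Car12 farthest left at -1.11.

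The DNA just before the start site of most of these genes holds the letters bound by HIF. It is shown here for a few members picked as examples, which do not stand for all members. The core letters of the hypoxia response element, ACGTG and GCGTG, were searched on both strands in the 250 bases before each RefSeq start (build GRCm38.p6, not the mm39 build named in the submitters' processing notes, so no position was joined to the expression table). ACGTG on both strands overlaps itself in CACGTG, the E-box bound by MYC and USF factors, which counts as 2 matches. Of the 39 members 36 had a window, and 31 of these had at least 1 match. Among their 49 windows 79.6% held a match and 49% held 2 or more, against 38.6% and 16.7% of all 32851 windows, while the median GC content was 61.6% in member windows and 52.4% in all windows. The members were listed partly as hypoxia-response genes, so this share is a description, and the part of GC content in it was not tested. Sequences run 5′ to 3′ on the strand of the gene, with the matches in capitals.
Slc2a1 (chr4:119108495-119108744, plus strand): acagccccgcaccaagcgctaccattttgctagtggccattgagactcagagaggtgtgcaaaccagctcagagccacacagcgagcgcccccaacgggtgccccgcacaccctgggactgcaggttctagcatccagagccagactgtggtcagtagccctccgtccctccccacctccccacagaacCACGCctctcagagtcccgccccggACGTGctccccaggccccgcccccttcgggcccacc
Ldha (chr7:46845554-46845803, plus strand): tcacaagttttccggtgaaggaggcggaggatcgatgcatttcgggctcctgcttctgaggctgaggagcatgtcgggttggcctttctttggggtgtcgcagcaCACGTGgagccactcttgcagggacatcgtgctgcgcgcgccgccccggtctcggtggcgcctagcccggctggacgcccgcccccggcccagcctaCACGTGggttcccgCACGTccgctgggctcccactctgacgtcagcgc
Slc16a3 (chr11:120948817-120949066, plus strand): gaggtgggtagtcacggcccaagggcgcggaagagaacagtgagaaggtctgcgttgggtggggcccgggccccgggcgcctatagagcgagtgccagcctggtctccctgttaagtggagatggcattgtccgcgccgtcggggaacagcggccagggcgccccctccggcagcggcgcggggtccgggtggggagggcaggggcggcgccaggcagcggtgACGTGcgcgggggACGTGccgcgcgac
Ankrd37 (chr8:45999851-46000100, minus strand): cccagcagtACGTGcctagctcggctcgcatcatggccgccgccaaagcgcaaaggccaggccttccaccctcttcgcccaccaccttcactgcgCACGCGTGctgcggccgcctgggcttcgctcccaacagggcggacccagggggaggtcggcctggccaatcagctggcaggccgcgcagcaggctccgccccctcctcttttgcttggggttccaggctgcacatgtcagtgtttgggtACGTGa
Car12 (chr9:66713436-66713685, plus strand): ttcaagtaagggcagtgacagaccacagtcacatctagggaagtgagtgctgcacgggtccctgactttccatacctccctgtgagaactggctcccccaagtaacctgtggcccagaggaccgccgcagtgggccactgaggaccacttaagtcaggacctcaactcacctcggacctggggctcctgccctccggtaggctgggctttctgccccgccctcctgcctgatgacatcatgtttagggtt
Slc2a1 and Slc16a3 had 2 matches each, Ankrd37 had 4 and the more upstream of the Ldha windows had 5, 4 of them in the paired CACGTG words. Car12, which fell, had none in its window. Other members went against this contrast. Tpi1, a DEG that rose, had none, while Pdha1 and P4ha1, which fell, had 3 each. By direction, 18 of the 22 windows of members that rose held a match, as did 12 of the 16 of members that fell and 6 of the 8 of members that did not pass, so windows with the letters were found on both sides. A match is a description of the letters, not a measured binding site.

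Of the glucose transporter members, Slc2a1 held nearly all of the transcript. It encodes GLUT1, the basal glucose transporter of most cell types. It was at 48.2, 47.7 and 47.1 TPM in control libraries, against 84.4, 86.1 and 82.5 TPM in pLV-SEMA6A. The groups were far apart with little spread inside either, and the pLV-SEMA6A mean was 1.77 times the control mean (log2 fold change 0.81, SE 0.031, adjusted p = 9.08e-06). Slc2a3, encoding the high-affinity transporter GLUT3, was at 2.16 to 3.52 TPM in control libraries, against 1.42 to 2.2 TPM in pLV-SEMA6A, the groups overlapped and it did not pass (log2 fold change -0.40, adjusted p = 0.122). Slc2a1 made up 94.6% ± 1.4 (SD, n = 3) of the summed TPM of these transporters in pLV-Control and 97.9% ± 0.43 in pLV-SEMA6A.

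Hexokinase, which traps glucose in the cell as glucose 6-phosphate, changed little at the transcript level. Hk1 was at 49.7 to 51.2 TPM in control libraries, against 44.8 to 47.8 TPM in pLV-SEMA6A and was lower by a small margin (log2 fold change -0.12, SE 0.038, adjusted p = 0.0423). That call was lost when any library except pLV-SEMA6A replicate 2 was left out, with adjusted p from 0.0699 to 0.115. Hk2, the hexokinase that HIF induces and many tumours raise, was at 36.6 to 38.8 TPM in control libraries, against 37.1 to 39.4 TPM in pLV-SEMA6A with overlapping groups (log2 fold change 0.03, adjusted p = 0.542, 95% interval -0.07 to 0.14). Gpi1, the isomerase that follows, was at 236 to 244 TPM in control libraries, against 234 to 237 TPM in pLV-SEMA6A and did not pass (log2 fold change -0.03, adjusted p = 0.288).

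Phosphofructokinase, the main control point of glycolysis, changed in its isozyme make-up. The liver isozyme Pfkl rose and the muscle isozyme Pfkm fell, while the platelet isozyme Pfkp stayed within its spread. Pfkl was at 38.8, 38 and 39.3 TPM in control libraries, against 59, 59.7 and 62.5 TPM in pLV-SEMA6A. All pLV-SEMA6A libraries lay above all pLV-Control libraries, by 1.56 times in the means (log2 fold change 0.63, SE 0.037, adjusted p = 4.75e-05). Pfkm was at 29.2, 26.9 and 29.2 TPM in control libraries, against 20, 20.1 and 20.5 TPM in pLV-SEMA6A (log2 fold change -0.47, SE 0.048, adjusted p = 0.000416), again without overlap but in the other direction. Its fold fell short of the DEG minimum with all libraries and passed it without pLV-Control replicate 2 (-0.51). Pfkp, the most abundant of the family in pLV-Control, was at 56 to 58 TPM in control libraries, against 56 to 60.2 TPM in pLV-SEMA6A (log2 fold change 0.02, adjusted p = 0.645), and it passed as higher only under median centring (adjusted p = 0.0408). As shares of the summed TPM of the family, Pfkl went from 31.2% ± 0.37 to 43.6% ± 1.3, Pfkm from 22.9% ± 0.88 to 14.6% ± 0.19 and Pfkp from 45.9% ± 1.2 to 41.8% ± 1.5 (SD, n = 3 per group). For each of these shares the groups did not overlap, which gives p = 0.1 by the exact two-sided permutation test, the smallest it allows here. In pLV-SEMA6A the Pfkl and Pfkp levels overlapped, whereas in pLV-Control Pfkp stood clear above Pfkl.

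**Figure D2:**
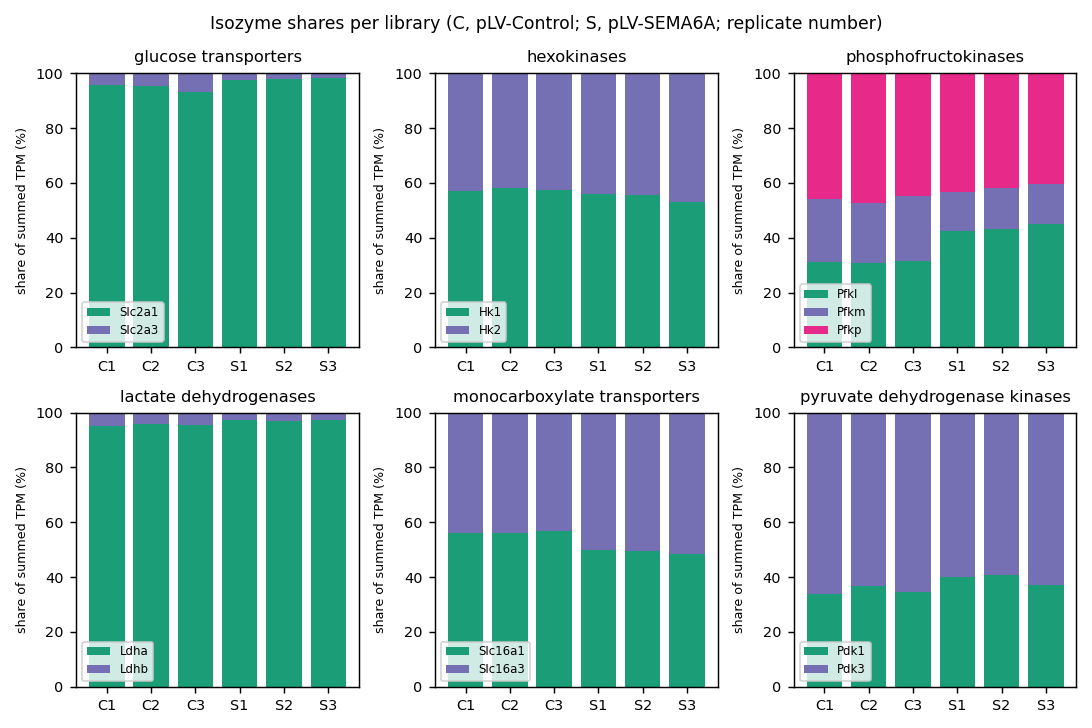
Share of the summed TPM (y axis, percent) held by each member isozyme in 6 families, with 1 bar per library. C1 to C3 are pLV-Control and S1 to S3 are pLV-SEMA6A. Only members enter the sums, so expressed relatives such as Slc2a8, Pdk2 and Pdk4 are left out. The Pfkl segment is 30.9% to 31.58% high in the control libraries and 42.38% to 44.98% in pLV-SEMA6A, and the Slc16a3 segment goes from 43.02% to 43.86% up to 50.11% to 51.69%.

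The bifunctional enzymes that make and break the allosteric activator of phosphofructokinase were expressed at low levels. Pfkfb3, whose product is weighted toward making the activator and which HIF induces, was at 8.13, 8.3 and 9.48 TPM in control libraries, against 5.59, 7.07 and 6.17 TPM in pLV-SEMA6A. It fell (log2 fold change -0.41, SE 0.1, adjusted p = 0.0169), with no overlap of groups. Without pLV-Control replicate 3, its highest library, the adjusted p was 0.0556. Pfkfb4 was at 4.68 to 7.92 TPM in control libraries, against 5.69 to 6.74 TPM in pLV-SEMA6A, with overlapping groups and a wide 95% interval of -0.35 to 0.46.

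Aldolase and triose phosphate isomerase, which cut the hexose and balance the resulting trioses, both rose. Aldoa was at 1014, 1018 and 1009.9 TPM in control libraries, against 1269, 1284 and 1295 TPM in pLV-SEMA6A (log2 fold change 0.34, SE 0.016, adjusted p = 1.97e-05). Tpi1 was at 354, 357 and 348 TPM in control libraries, against 543, 540.0 and 538 TPM in pLV-SEMA6A. The gap between the Tpi1 groups was far wider than their SDs of 4.8 and 2.4 TPM, and the mean rose to 1.53 times the control (log2 fold change 0.61, SE 0.019, adjusted p = 4.18e-06). Aldoc, the brain isozyme, was below the level filter at 0.33, 0.3 and 0.41 TPM in pLV-Control and 0.43, 2.41 and 0.69 TPM in pLV-SEMA6A and held 0.0295% to 0.187% of the TPM of both aldolases.

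The later steps of the pathway, from glyceraldehyde phosphate to pyruvate, held the most abundant transcripts. All 6 members there but Eno2 averaged over 300 TPM, a level chosen after the values were seen, at which 42.5% of genes rose and 38.3% fell. Of the 6 members, 4 rose and 2 fell (66.7% and 33.3%, against 19.5% and 28.2% of all genes). Pkm, the pyruvate kinase of most proliferating cells, made the largest step of the 4. It was at 1587, 1587 and 1596 TPM in control libraries, against 2401, 2391 and 2396 TPM in pLV-SEMA6A. The SD was 5.4 TPM in each group while the pLV-SEMA6A mean was 1.51 times the control mean (log2 fold change 0.59, SE 0.013, adjusted p = 1.05e-06), and Pkm had the smallest adjusted p of the members. The gene-level values do not separate the PKM1 and PKM2 splice forms. Pgk1, which makes ATP from bisphosphoglycerate, rose from 667 to 865 TPM in the means (log2 fold change 0.37, SE 0.019, adjusted p = 2.88e-05). Pgam1, the phosphoglycerate mutase, rose from 356 to 473 TPM (log2 fold change 0.41, SE 0.029, adjusted p = 9.25e-05). Gapdh, the triose dehydrogenase often used as a reference gene, was at 2908, 2911 and 3173 TPM in control libraries, against 3319.6, 3305 and 3525 TPM in pLV-SEMA6A. Its rise was small (log2 fold change 0.18, SE 0.042, adjusted p = 0.0147), the groups lay close without overlapping, and without the level filter the adjusted p was 0.0527.

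The enolase members went the other way. Eno1, the ubiquitous enolase, was at 1344, 1365 and 1353 TPM in control libraries, against 1298, 1259 and 1320.2 TPM in pLV-SEMA6A. The difference was small (log2 fold change -0.07, SE 0.022, adjusted p = 0.041), it did not pass when any library but pLV-SEMA6A replicate 3 was left out (adjusted p 0.0741 to 0.115), and under median centring it turned to 0.03. Eno2, the neuronal enolase and a common marker of neuroendocrine cells, was at 9.84, 9.27 and 8.66 TPM in control libraries, against 6.27, 4.87 and 5.24 TPM in pLV-SEMA6A. All pLV-SEMA6A libraries were lower (log2 fold change -0.67, SE 0.1, adjusted p = 0.00215), yet Eno2 held only 0.385% to 0.727% of the TPM of Eno1 and Eno2. Eno3, the muscle enolase, is not a member and was looked at after its values were seen. It was at 134 to 145 TPM in control libraries, against 176 to 189.5 TPM in pLV-SEMA6A and rose (log2 fold change 0.41, SE 0.042, adjusted p = 0.000455), so the enolase genes moved in both directions.

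Read by level, the 17 glycolytic enzyme and lactate dehydrogenase genes fell into different patterns. Of the 8 with a mean of at least 300 TPM, a level chosen after the values were seen, 7 rose and Eno1 alone fell, with a median log2 fold change of 0.39. Among all 449 genes at that level 42.5% rose and 38.3% fell, so passing the test was common at such levels in both directions. Of the 9 below it 8 were tested, Pfkl alone rose, 4 fell and 3 did not pass, with a median of -0.07. The rising and falling shares of these were 12.5% and 50%, against 19.5% and 28.2% of all genes tested. Among all genes averaging at least 20 TPM, 30.2% rose and 30.1% fell. Hk1 and Ldhb, which are among the 4 that fell, lost their calls when most single libraries were left out. So did Eno1 at the higher level. The summed TPM of the 17 was 9637, 9688 and 9899 in pLV-Control and 11959, 11874 and 12176 in pLV-SEMA6A. That is 0.988% ± 0.013 and 1.23% ± 0.016 of the listed TPM (SD, n = 3 per group), with no overlap. The order of levels also shifted. In pLV-Control it ran Gapdh, Pkm, Eno1, Aldoa, Ldha, Pgk1 and then Pgam1 and Tpi1, whose libraries overlapped. In pLV-SEMA6A the libraries of Eno1 overlapped with those of Aldoa and Ldha, and Tpi1 stood above Pgam1 in every library.

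**Figure D3:**
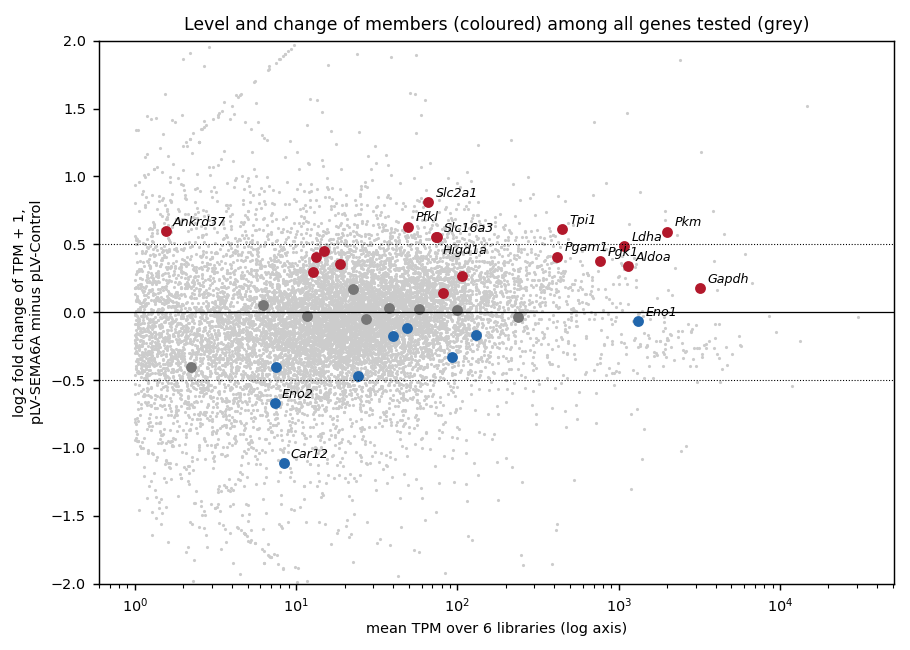
Log2 fold change of TPM + 1 (y axis) against the mean TPM over the 6 libraries (x axis, log scale) for the members (large points: red rose, blue fell, dark grey did not pass) and all other genes tested (small light grey points, 115 of 12510 genes lie outside the plotted range). The members at 300 TPM or more lie above 0 except Eno1, and Car12 and Eno2 lie below -0.5.

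Several of the abundant enzymes share sequence with other annotated genes, whose type was not checked. How the counting divided such reads is not known. Transcripts (GENCODE M21) were cut into all overlapping words of 31 bases, and the words also present in another gene made up 54.7% for Pgk1, 37.1% for Pgam1, 34.7% for Pkm, 28.5% for Eno1, 27.2% for Gapdh, 19.6% for Ldha, 17% for Aldoa and 10.3% for Tpi1. The largest sharer of Gapdh, Gm7336, averaged 476.4 TPM in the controls and 551.6 TPM in pLV-SEMA6A cells, so the Gapdh value is uncertain. That of Pgam1, Pgam1-ps2, averaged 31.57 and 46.17 TPM. The largest sharer of Pkm, Gm6560, held 17.9% of its words and was under 1 TPM in both groups. Another sharer of Pkm, Gm49759, averaged 23.28 TPM over the 6 libraries. Slc2a1 and Slc16a3 had no shared word and Pfkl had 0.418%.

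**Figure D4:**
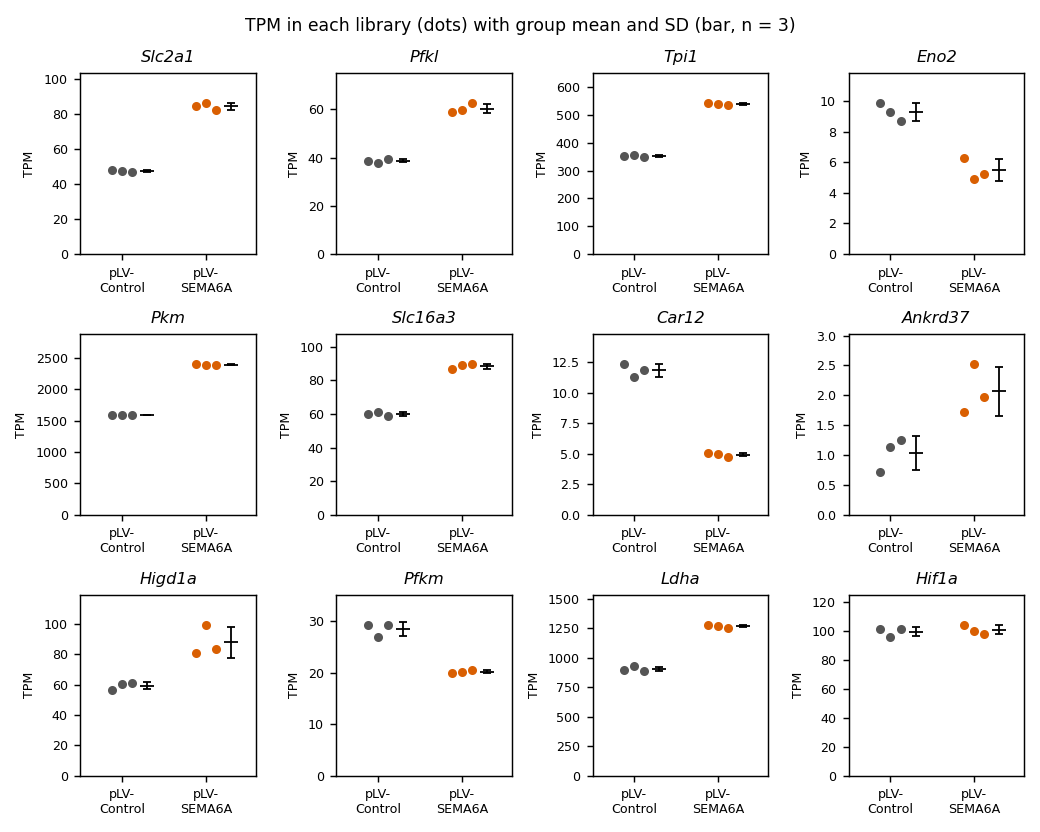
TPM (y axis, from 0) in each library for 12 members, with pLV-Control in grey, pLV-SEMA6A in orange and the group mean ± SD (n = 3) as a bar beside the points. The panels are the 9 members called DEGs, with Ldha, Hif1a and Pfkm added. In 11 panels the groups do not overlap, which follows largely from this choice, and in the Hif1a panel they do. Pkm, for example, is at 1587 to 1596 against 2391 to 2401 TPM. Among all genes tested 58.5% did not overlap.

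At the end of the pathway, 4 of the 7 members rose (Ldha, Slc16a1, Slc16a3 and Pdk1), 2 fell (Ldhb and Pdha1) and Pdk3 did not pass. The rising and falling shares were 57.1% and 28.6%, against 19.5% and 28.2% of all genes. Ldha, the lactate dehydrogenase subunit favouring reduction of pyruvate, was at 898, 927 and 890.4 TPM in control libraries, against 1278, 1270.3 and 1257 TPM in pLV-SEMA6A. It reached 1.4 times the control mean (log2 fold change 0.49, SE 0.021, adjusted p = 1.31e-05), just short of the DEG minimum, and was a DEG without pLV-Control replicate 2 (0.504) and under median centring. Ldhb, the heart subunit favouring oxidation of lactate, was at 39.8 to 44.7 TPM in control libraries, against 35.2 to 38.8 TPM in pLV-SEMA6A (log2 fold change -0.18, SE 0.059, adjusted p = 0.0461). The Ldhb call was lost when any library but pLV-Control replicate 2 was left out (adjusted p 0.0534 to 0.126), and 33% of its words of 31 bases are shared with other genes. Ldha made up 95.5% ± 0.32 of the TPM of both in pLV-Control and 97.1% ± 0.12 in pLV-SEMA6A.

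Slc16a3 encodes MCT4, the low-affinity lactate exporter of glycolytic cells. It was at 60, 61.1 and 58.9 TPM in control libraries, against 86.8, 89.1 and 89.7 TPM in pLV-SEMA6A, with all pLV-SEMA6A libraries above all controls (log2 fold change 0.55, SE 0.031, adjusted p = 3.8e-05). Slc16a1, encoding MCT1, which moves lactate either way, rose less, from a mean of 77.7 to 86 TPM (log2 fold change 0.14, SE 0.03, adjusted p = 0.00811). The rank of the transporters turned with this. Slc16a3 held 43.6% ± 0.48 of their summed TPM in pLV-Control and 50.7% ± 0.85 in pLV-SEMA6A (exact permutation p = 0.1, the smallest possible). Slc16a1 was ahead in all 3 control libraries and Slc16a3 in all 3 pLV-SEMA6A libraries. The lead of Slc16a3 was slight, in pLV-SEMA6A replicate 1 only 86.76 against 86.38 TPM. Bsg, basigin, the chaperone that both need to reach the membrane, is not a member and was named after its values were seen. It fell, from 674 to 589 TPM (log2 fold change -0.19, SE 0.025, adjusted p = 0.00114).

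Entry of pyruvate into the citric acid cycle is gated by the pyruvate dehydrogenase complex, which the PDK kinases switch off. Pdha1, its catalytic α subunit, was at 104, 102 and 103 TPM in control libraries, against 79.7, 81.6 and 83.4 TPM in pLV-SEMA6A and fell in all libraries compared with the controls (log2 fold change -0.33, SE 0.029, adjusted p = 0.000223). Pdk1, the HIF-induced kinase, was at 10.6, 12.4 and 11.1 TPM in control libraries, against 14.7, 16.8 and 14.8 TPM in pLV-SEMA6A and rose (log2 fold change 0.41, SE 0.082, adjusted p = 0.00697). Pdk3 was at 20.7 to 21.4 TPM in control libraries, against 21.9 to 25.1 TPM in pLV-SEMA6A, without overlap, and did not pass (log2 fold change 0.17, adjusted p = 0.0539), though it did without pLV-SEMA6A replicate 1 (adjusted p = 0.0154). Among 11 further genes of pyruvate entry, all tested, 2 rose and 3 fell (18.2% and 27.3%, against 19.5% and 28.2% of all genes), with a median of -0.06. Pdk4, a kinase induced in fasting, was the DEG among them at 6.77, 6.33 and 6.54 TPM in control libraries, against 3.96, 3.99 and 4.12 TPM in pLV-SEMA6A (log2 fold change -0.59, SE 0.074, adjusted p = 0.00103). The β subunit gene Pdhb (log2 fold change 0.27, adjusted p = 0.00205) and the mitochondrial pyruvate carrier gene Mpc1 (log2 fold change 0.27, adjusted p = 0.00479), the 2 that rose and both named after their values were seen, moved opposite to Pdha1.

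Among HIF α and its regulators, 2 of the 4 members tested rose and none fell (50% and 0%, against 19.5% and 28.2% of all genes). The HIF α transcript itself did not pass. Hif1a was at 101, 95.6 and 101 TPM in control libraries, against 104, 99.9 and 97.7 TPM in pLV-SEMA6A, with interleaved libraries (log2 fold change 0.02, SE 0.038, adjusted p = 0.733, 95% interval -0.07 to 0.11). Under median centring the estimate was 0.11 with an adjusted p of 0.044. Epas1, encoding HIF2α, was at 0.01 TPM in pLV-Control replicate 2 and listed at 0 in the other 5 libraries, so Hif1a supplied nearly all of the HIF α transcript. Vhl, the receptor subunit of the ligase that removes HIF α, was at 11 to 12.7 TPM in control libraries, against 11.3 to 11.7 TPM in pLV-SEMA6A and did not pass (log2 fold change -0.03, adjusted p = 0.732). The prolyl hydroxylase genes Egln1 and Egln3, which encode PHD2 and PHD3 and are themselves induced by HIF, both rose. Egln1 was at 15.8, 16.8 and 16.7 TPM in control libraries, against 21.6, 20.7 and 21.4 TPM in pLV-SEMA6A (log2 fold change 0.35, SE 0.047, adjusted p = 0.00129). Egln3 was at 12, 12.4 and 13.1 TPM in control libraries, against 17.3, 18.9 and 16.1 TPM in pLV-SEMA6A (log2 fold change 0.45, SE 0.071, adjusted p = 0.00261), and it was a DEG without pLV-SEMA6A replicate 3 (0.501). Neither gene overlapped between the groups, and their relative shares did overlap (Egln3 43.2% ± 0.77 and 45% ± 2.4, exact permutation p = 0.3).

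Around these members, 15 of 16 further genes of the HIF pathway were tested, and 3 rose and 4 fell (20% and 26.7%, against 19.5% and 28.2% of all genes), with a median of 0.06. Arnt, the partner that HIF α needs to bind DNA, was at 77.6, 80.6 and 76.6 TPM in control libraries, against 52.6, 51.2 and 47 TPM in pLV-SEMA6A. It fell to 0.642 times the control mean with no overlap (log2 fold change -0.63, SE 0.05, adjusted p = 0.00014). Rbx1, the RING subunit of the VHL ligase and of other cullin ligases, was at 79.7, 85.9 and 75.3 TPM in control libraries, against 114, 132 and 123 TPM in pLV-SEMA6A and rose (log2 fold change 0.61, SE 0.068, adjusted p = 0.000592). Hif1an, encoding the asparaginyl hydroxylase FIH (log2 fold change -0.02, adjusted p = 0.801), and Egln2, encoding PHD1 (log2 fold change 0.07, adjusted p = 0.307), had overlapping groups and did not pass, though Egln2 did under median centring (adjusted p = 0.0495).

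Of the 7 hypoxia effectors tested among the members, 4 rose and 2 fell (57.1% and 28.6%, against 19.5% and 28.2% of all genes), and P4ha2 did not pass. The carbonic anhydrases, which handle the acid that glycolytic cells release, went in opposite directions. Car9, a HIF target used as a tissue marker of hypoxia, was at 11.5, 11.1 and 11.1 TPM in control libraries, against 14.1, 14.3 and 13.8 TPM in pLV-SEMA6A and rose (log2 fold change 0.30, SE 0.05, adjusted p = 0.00334). Car12, a related membrane enzyme, was at 12.3, 11.3 and 11.9 TPM in control libraries, against 5.04, 4.98 and 4.77 TPM in pLV-SEMA6A. Every pLV-SEMA6A library was far under every control library, and the fold was the largest in size of any member tested (log2 fold change -1.11, SE 0.066, adjusted p = 4.75e-05).

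Higd1a, a small mitochondrial inner membrane protein induced by hypoxia, was at 56.6, 60.6 and 60.8 TPM in control libraries, against 80.5, 99.1 and 83.4 TPM in pLV-SEMA6A (log2 fold change 0.55, SE 0.081, adjusted p = 0.00193). Replicate 2 was the highest of the pLV-SEMA6A libraries, and without it the log2 fold change was 0.46, under the DEG minimum. Ankrd37, an ankyrin repeat gene that HIF1 induces directly, was at 0.71, 1.14 and 1.25 TPM in control libraries, against 1.72, 2.52 and 1.97 TPM in pLV-SEMA6A (log2 fold change 0.60, SE 0.18, adjusted p = 0.0347). It lay close to the level filter, and the call was lost without pLV-Control replicate 1 or 2 and without pLV-SEMA6A replicate 2 or 3 (adjusted p 0.0633 to 0.105). Ndrg1, a stress-induced gene with metastasis-restraining roles, was at 96.1, 97.4 and 97.8 TPM in control libraries, against 117, 117 and 118 TPM in pLV-SEMA6A and rose with very little spread (log2 fold change 0.27, SE 0.024, adjusted p = 0.000258).

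The collagen prolyl hydroxylase subunits, which HIF induces and which modify collagen in the endoplasmic reticulum, passed in no case as higher. P4ha1 was at 136, 137 and 139.8 TPM in control libraries, against 124, 119.9 and 123 TPM in pLV-SEMA6A and fell (log2 fold change -0.17, SE 0.027, adjusted p = 0.00272), and P4ha2 was at 26.2 to 28.7 TPM in control libraries, against 25.7 to 27.4 TPM in pLV-SEMA6A with overlap (log2 fold change -0.05, adjusted p = 0.463). Under median centring P4ha1 did not pass (adjusted p = 0.0723) and P4ha2 turned to 0.04. Adm, the vasodilator adrenomedullin and a strong HIF target in many cells, was near the bottom of the table at 0, 0.26 and 0.16 TPM in pLV-Control and 0, 0 and 0.16 TPM in pLV-SEMA6A and was not tested.

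A longer list of 38 other HIF target names, written from textbook knowledge, gave 30 tested genes, with a median of -0.07. Of these 9 rose and 11 fell (30% and 36.7%, against 19.5% and 28.2% of all genes). Among all genes averaging at least 20 TPM, 30.2% rose and 30.1% fell. Hmox1, heme oxygenase, was at 182, 198 and 179 TPM in control libraries, against 82.7, 82 and 77 TPM in pLV-SEMA6A and fell to 0.433 times the control (log2 fold change -1.20, SE 0.049, adjusted p = 1.11e-05). Hmox1 is also induced by NRF2. Bhlhe40, a transcriptional repressor of the clock and hypoxia responses, was at 16.2, 17.7 and 17 TPM in control libraries, against 9.35, 11.5 and 9.74 TPM in pLV-SEMA6A and fell (log2 fold change -0.69, SE 0.084, adjusted p = 0.000908). Tfrc, the transferrin receptor for iron uptake, was at 14.8, 14.7 and 15.6 TPM in control libraries, against 27.1, 24.3 and 24.6 TPM in pLV-SEMA6A and rose (log2 fold change 0.72, SE 0.058, adjusted p = 0.000161). A further 3 DEGs of the list were named after their values were seen. Angptl4, a secreted inhibitor of lipoprotein lipase, was at 0.91, 1.33 and 0.79 TPM in control libraries, against 5.17, 4.15 and 3.72 TPM in pLV-SEMA6A and rose (log2 fold change 1.41, adjusted p = 0.000762). Ddit4, an inhibitor of mTORC1 induced by hypoxia, rose (log2 fold change 0.54, adjusted p = 0.000206), and Plod1, a collagen lysyl hydroxylase, fell (log2 fold change -0.56, adjusted p = 8.19e-05). Vegfa, the best known HIF target, also named after its values were seen, was at 299.8, 300.3 and 298 TPM in control libraries, against 261, 274 and 252 TPM in pLV-SEMA6A and fell (log2 fold change -0.19, SE 0.033, adjusted p = 0.00392).

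Of 31 other glycolysis genes 16 were tested, and 3 rose and 6 fell (18.8% and 37.5%, against 19.5% and 28.2% of all genes), with a median of -0.08. Pgm3, which diverts hexose toward protein glycosylation, was at 11.1, 13.3 and 10.5 TPM in control libraries, against 7.92, 7.73 and 7.2 TPM in pLV-SEMA6A and fell (log2 fold change -0.55, SE 0.095, adjusted p = 0.00379). Slc2a8, an intracellular glucose transporter, was at 6.58, 8.26 and 7.32 TPM in control libraries, against 5.83, 4.72 and 4.01 TPM in pLV-SEMA6A (log2 fold change -0.53, SE 0.14, adjusted p = 0.0203), and its call was lost without pLV-Control replicate 2 or 3 and without pLV-SEMA6A replicate 2 or 3 (adjusted p 0.052 to 0.0659). The other DEGs of this list were Galm, the mutarotase that interconverts glucose anomers (log2 fold change -0.82, adjusted p = 0.000445), and Slc2a6, a lysosomal hexose transporter at 0.71, 0.25 and 0.45 TPM in control libraries, against 2.12, 2.77 and 2.26 TPM in pLV-SEMA6A (log2 fold change 1.21, adjusted p = 0.00225), both named after their values were seen. Slc2a6 passed the level filter only through its pLV-SEMA6A libraries.

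In the pentose phosphate pathway, which branches off at glucose 6-phosphate to make NADPH and ribose, all 10 listed genes were tested and none was a DEG. Of them 3 rose and 6 fell (30% and 60%, against 19.5% and 28.2% of all genes), with a median of -0.19. G6pdx, the entry enzyme, named after its values were seen, was at 66, 65.9 and 65 TPM in control libraries, against 84.4, 79.7 and 85.7 TPM in pLV-SEMA6A and rose (log2 fold change 0.34, SE 0.036, adjusted p = 0.000509). Of the 6 gluconeogenesis genes 3 passed the level filter, 1 of which rose and 1 fell (33.3% each, against 19.5% and 28.2% of all genes). Pck1, Fbp1 and Fbp2 were listed at 0 in all libraries. Over the 111 genes of these lists that are in the table, with the members left out, 85 were tested, and 5 were DEGs that were higher and 9 that were lower (5.88% and 10.6%, against 5.12% and 10.8% of all genes).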

How the data were processed

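Total RNA of SL4 cells was sequenced after poly(A) selection in 6 libraries, 3 per group. The authors deposited 1 table of expression values per gene and library, read here as TPM. The submitters' processing notes name Bowtie2, HISAT, RSEM and mm39, with no versions or roles. The unit was taken from the values, which sum to 977400 to 986445 per library, and read counts were not used here, so depth is unknown and a count model could not be fitted. The 2 columns of group means were not used. Values were log2-transformed with a pseudocount of 1, genes averaging 1 TPM or more were kept, and groups were compared without covariates with limma 3.58.1 (trend) in R 4.3.3, with Benjamini-Hochberg adjustment over 12510 genes. A DEG needed both an adjusted p under 0.05 and a log2 fold change beyond 0.5 in either direction. Isozyme shares were compared by exact two-sided permutation of libraries. The procedure was tested on simulated data.

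The members and lists were chosen with earlier results of these data known. Every member is reported, DEGs and the most abundant member of a role group without a DEG with all libraries. From each other list up to 4 DEGs with the largest fold among those averaging 5 TPM or more were named, as were Arnt, Hif1an and Egln2. Genes named outside this rule are marked, and 1 gene the rule names is not reported here. RefSeq promoter windows and GENCODE M21 transcripts were matched by symbol and gene identifier. Alternatives were a pseudocount of 0.1, no level filter, a filter at 5 TPM, other fold minimums, centring of libraries, a replicate block and leaving out each library.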

Additional observations from a re-analysis of the deposited data

How the results depend on the processing

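TPM carry no read depth, so low genes (Ankrd37, Slc2a3, Pfkfb4, Aldoc, Adm) are limited by a precision that cannot be stated. With no minimum fold change the DEGs were 2436 higher and 3523 lower over all genes, 18 and 9 over the members and 21 and 31 over the other lists; with a minimum of 1 they were 81 and 304, 0 and 1 (Car12), and 2 and 2. A filter at 5 TPM left 3 higher DEGs in the other lists. Centring on the median gave 1002 higher DEGs over all genes, 11 among the members, which gained Egln3, Ldha, Pdk1 and Pgam1, and 8 higher and 5 lower in the other lists, with 21 members rising and 5 falling by adjusted p alone. Hif1a, Pfkp, Pdk3 and Egln2 passed as higher there (adjusted p 0.0440, 0.0408, 0.0124 and 0.0495). It reversed Gpi1 (0.061), Eno1 (0.0258), Vhl (0.0634), P4ha2 (0.0440) and Hif1an (0.0706). Centring on the median of genes of at least 20 TPM, chosen after seeing the data, gave 8 higher and 2 lower members and put Vhl at 3.29e-05 and Hif1an at 0.0072. Leaving out 1 library at a time gave 616 to 631 higher and 1280 to 1346 lower DEGs over all genes, 5 to 7 and 2 to 3 among the members, 5 to 7 and 7 to 10 in the other lists, and 17 to 19 rising and 5 to 7 falling members by adjusted p alone, the lowest count of 5 without pLV-Control replicate 3. Members that lose or gain a DEG call this way are Ankrd37, Higd1a, Ldha, Pfkm and Egln3. The estimate changed sign in some of these fits for Hif1a (-0.00982 to 0.0367), Hif1an (-0.0627 to 0.00918), Vhl (-0.0776 to 0.0180), Pfkfb4 (-0.0964 to 0.229) and Pfkp (-0.00343 to 0.0478), none of which passed the test with all libraries; the cause of these changes was not tested. Same-numbered libraries did not deviate together (correlations -0.0795 to -0.0228). Deviations from a group mean are tied to each other, so these values cannot decide whether the numbers pair the samples. The labels do not say either. With the replicate number as a block there were 623 higher and 1301 lower DEGs over all genes and 6 and 2 among the members. Ankrd37 was then not a DEG (adjusted p = 0.0514), and Hk1, Eno1 and Ldhb did not pass. Without the level filter Hk1, Gapdh, Eno1, Ldhb, Ankrd37 and Slc2a8 did not pass, when 24518 genes were tested. A pseudocount of 0.1 moved no named gene across the threshold. A count model was not run because the values were read as TPM.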

Other observations

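In the HIF pathway list Arnt2, a neuronal relative of Arnt, was at 0.02, 0.04 and 0.05 TPM in pLV-Control and 12.6, 0.03 and 0.02 TPM in pLV-SEMA6A. The value of pLV-SEMA6A replicate 1 stood apart from the other 5 libraries, and Arnt2 passed the level filter only through that library. It did not pass the test (log2 fold change 1.23, adjusted p = 0.345). A single high library was also seen for Aldoc at a lower level, with 2.41 TPM in pLV-SEMA6A replicate 2 against at most 0.69 TPM elsewhere. Both were singled out after their values were seen.

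The genes of the pentose phosphate list moved in both directions. By log2 fold change, the oxidative dehydrogenases of the cytosol, G6pdx (0.34, adjusted p = 0.000509) and Pgd (0.19, adjusted p = 0.00222), rose, while the non-oxidative enzymes Tkt (-0.19, adjusted p = 0.00248), Taldo1 (-0.28, adjusted p = 0.00126) and Rpe (-0.22, adjusted p = 0.00224) fell, as did the phosphoribosyl pyrophosphate synthetases Prps1 (-0.42, adjusted p = 0.003) and Prps2 (-0.36, adjusted p = 0.00565). Each branch also held a gene that went the other way. Pgls, the oxidative lactonase between the dehydrogenases, fell (-0.18, adjusted p = 0.0139). Rpia, the non-oxidative ribose phosphate isomerase, rose (0.39, adjusted p = 0.00127). H6pd, the dehydrogenase of the endoplasmic reticulum, did not pass (-0.20, adjusted p = 0.0531). These log2 fold changes were read after their values were seen, and a split by branch was not tested.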
